A study of Homo sapiens with 12 samples.

Results

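HNRNPK and 9 further mRNAs of the heterogeneous nuclear ribonucleoprotein (hnRNP) group were followed through the ribosomal fractions of MCF10A cells. MCF10A is a non-tumorigenic human mammary epithelial line. The 10 genes were given by name as HNRNPK, its KH-domain relatives PCBP1 and PCBP2, and the major hnRNPs HNRNPA1, HNRNPA2B1, HNRNPC, HNRNPD, HNRNPL, HNRNPM and HNRNPU. They are 10 of the 56632 genes in each table. Wild-type cells (WT) and cells in which CBFB was deleted with CRISPR (CBFB_KO) were compared at fewer than 20 passages. All cells, controls included, received 100 µg/ml cycloheximide for 30 min, and their lysates were separated on 10 to 50% sucrose gradients. RNA was sequenced from the free, mono (monoribosomal) and poly (polyribosomal) fractions, with 2 replicates of each of the 6 conditions and 12 libraries in all, from a kit for mRNA. The knockout method of the study picks single-cell colonies, so a difference between genotypes may also be one between a clone and its parent line. Nothing in the labels says whether the 2 replicates came from separate cultures, so p-values measure the spread between these samples, which may be technical.

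hnRNPs coat nascent transcripts in the nucleus and take part in splicing, export, stability and translation, and many of them shuttle between nucleus and cytoplasm. hnRNPK and the poly(C)-binding proteins PCBP1 and PCBP2 contact C-rich RNA through KH domains, whereas most of the others use RRM domains. The study identified hnRNPK as the protein through which CBFB, known as the partner of RUNX transcription factors, contacts mRNA. The question addressed here is how the mRNAs that encode these RNA-binding proteins were themselves distributed between ribosome-free, monosomal and polysomal RNA, and whether that distribution differed without CBFB. Each library is a measure of relative amounts within 1 fraction of a bulk lysate. In such samples fewer cells of a type and less RNA per cell cannot be told apart.

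The libraries held 41050325 to 63886726 expected counts (median 51180935). Mitochondrially encoded genes took 71.56 and 87.22% of the CBFB_KO free libraries, 11.1 and 20.81% of the WT free libraries and 1.26 to 8.08% of the other 8. This left 13568143 and 5247878 counts on other genes in the CBFB_KO free libraries and at least 43279862 in each of the rest. The CBFB_KO poly pair differed far less than any other pair. Its mean chi-square per gene was 2.2, against 118.5 to 901.5 for the other 5 pairs, and its median over the 10 mRNAs was 1.1. It was kept as 2 samples because 2.2 exceeds sampling noise over all genes. Repeat preparations of 1 RNA could differ as little, so the SDs and SEs of CBFB_KO poly may be technical alone. Some, not all, of the results that change when it counts as 1 sample are given below. Levels are given below as TMM CPM, the count relative to a library size scaled by trimmed-mean factors so that the bulk of genes matches between libraries. CBFB mRNA itself was not called different between genotypes. It had 11.3 and 14.1 TMM CPM in CBFB_KO free against 5.37 and 12.6 in WT free. In mono it had 4.79 and 3.89 in CBFB_KO against 8.03 and 6.20 in WT. In poly it had 3.59 and 4.01 in CBFB_KO against 5.72 and 6.84 in WT (log2 change -0.72 ± 0.43 (SE), adjusted p = 1). A frame-shifting deletion need not lower an mRNA, so these counts do not check the genotype labels. All 8 basal epithelial markers were counted in every library. Of the 5 luminal markers PGR was at 0 in all 12 libraries and ESR1 had 4 to 69 counts. KRT8 (290 to 27344), KRT18 (637 to 48461) and GATA3 (68 to 1128) were counted in every library. Of the markers of other cells, the leukocyte marker PTPRC was at 0 in all 12, while COL1A1 was counted in every library (10 to 320).

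PCBP1 and PCBP2 gave different values in the CBFB_KO free fraction (below), and the sequences around their transcription starts show how close the genes are. The windows below run from 60 bases before the start to 20 bases after it, on the plus strand of GRCh38.p14 from RefSeq, at chr2:70087417-70087496 for PCBP1 and chr12:53452042-53452121 for PCBP2. The capitals mark the longest run of bases that both share, 15 bases long.

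PCBP1: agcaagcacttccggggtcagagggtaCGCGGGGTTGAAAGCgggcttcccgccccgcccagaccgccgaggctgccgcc

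PCBP2: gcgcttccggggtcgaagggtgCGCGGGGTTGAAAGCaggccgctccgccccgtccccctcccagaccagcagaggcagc

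Aligned end to end, the windows were identical at 69.7% of positions. The same window of HNRNPK (its first listed start) was identical at 44.7% to that of PCBP1 and at 46.7% to that of PCBP2. On the same strand, the capital run was found in 2 of the 35116 windows of the table (0.0057%), those of PCBP1 and PCBP2. The run was picked as the longest that these windows share, so both hits were fixed in advance. This count is therefore no measure of how close the genes are. The similarity went on through the mature RNA: the first listed GENCODE transcripts of PCBP1 and PCBP2 (1750 and 1730 bases) were 71.5% identical, with a longest shared run of 33 bases. Of the 10 genes 9 had a start in the table, at 11 starts. HNRNPA1 had none there, so its start was not examined. None of the 11 starts began with C followed by 4 pyrimidines (C or T), the opening of terminal oligopyrimidine mRNAs. Of all starts 4.07% did, so 0 of 11 stands near that share and does not set these genes apart.

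To compare levels between genes, TPM values, which are corrected for transcript length, were rescaled in each library over the genes outside the mitochondrial genome (non-mitochondrial TPM, with SD over n = 2 where given). In WT poly, HNRNPA1 was the most abundant of the 10, with 404 and 594 in the libraries, followed by HNRNPC with 439 and 469 and PCBP2 with 437 and 395. Their values overlapped. HNRNPL (307 and 287) and PCBP1 (219 and 194) came next, and HNRNPK was sixth with 157 and 234, which overlapped PCBP1. HNRNPU was the lowest with 18.5 and 61.5. In CBFB_KO poly the first 3 were again HNRNPA1, HNRNPC and PCBP2, with 482 ± 0.61, 406 ± 2.82 and 301 ± 2.73, and HNRNPK was again sixth with 145 ± 1.48. In the mono fraction HNRNPA1 stood above the other 9 in both genotypes, with 205 and 208 in WT, where the second, HNRNPC, had 72.3 and 75.5.

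The order in the free fraction was another. In WT free PCBP2 (230 and 387) and PCBP1 (235 and 272) led and overlapped each other. In CBFB_KO free PCBP2 reached 8767 and 13054 and was the 10th and 11th most abundant of all non-mitochondrial genes, against ranks 492 and 288 in WT free. HNRNPC followed with 1920 and 2931. The 10 mRNAs together took 1.29 and 2.27% of the non-mitochondrial counts in CBFB_KO free, 0.142 and 0.18% in WT free, 0.0926 to 0.11% in the 4 mono libraries and 0.346 to 0.417% in the 4 poly libraries.

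**Figure D1:**
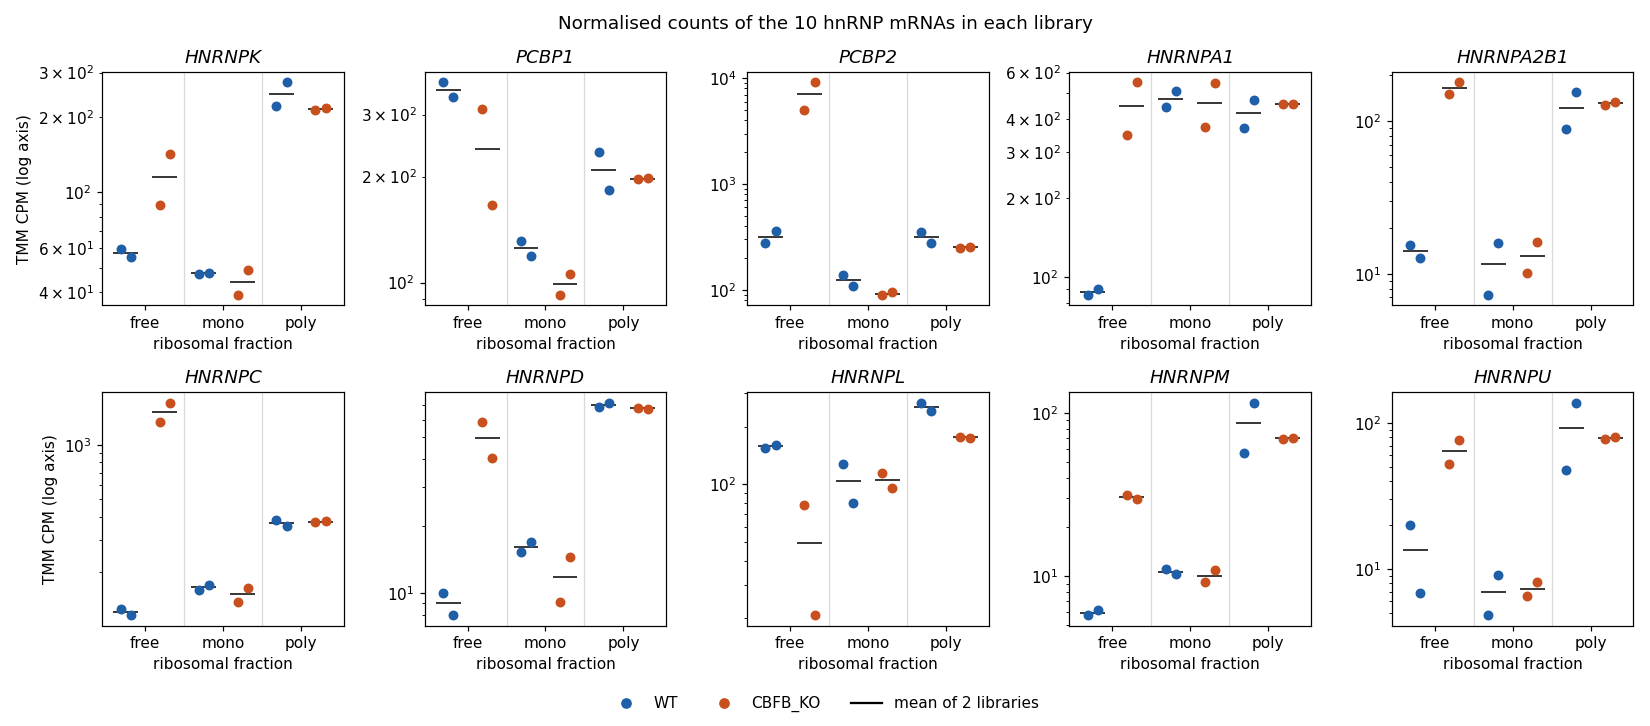
Normalised counts of the 10 hnRNP mRNAs. The y axis of each panel is TMM CPM on its own log scale, the x axis gives the fraction, each point is 1 library (blue, WT; orange, CBFB_KO) and the black line is the mean of 2 libraries. PCBP2 stands at 4970 and 9117 in CBFB_KO free and at 89.6 to 359 in the other 10 libraries; within mono and poly the 2 genotypes lie close together.

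Differences were tested on counts with TMM factors by edgeR's quasi-likelihood test over 16275 genes, and a gene was called at an adjusted p under 0.05. In WT, 7 of the 10 mRNAs were higher in poly than in free and none was lower, where 14.0% of all tested genes were called higher and 7.99% lower. DESeq2 also called 7 higher, and 1, PCBP1, lower. Here and below, shares of all genes called belong to the main test of each comparison. Counts from DESeq2 and other settings have no such share beside them and are not read as results about these mRNAs. The median log2 change was 2.18 over the 10 and 0.08 over all genes. The calls were 4 without WT replicate 1 and 3 without WT replicate 2. Against mono, 7 of 10 were again higher in WT poly and none lower (11.0 and 9.68% of all genes), with a median of 1.74 over the 10 and -0.04 over all genes. These fell to 3 without WT replicate 1 and 0 without WT replicate 2. PCBP2 was called against mono and not against free, and HNRNPA1 against free and not against mono. HNRNPK, HNRNPA2B1, HNRNPC, HNRNPD, HNRNPM and HNRNPU were called in both.

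In CBFB_KO the poly to mono comparison gave 7 of 10 higher and 0 lower, where 8.20% of all genes were higher and 8.66% lower. All of these calls were lost when either CBFB_KO replicate was left out or when the near-identical poly pair was counted as 1 sample. Poly against free called 2 of 10 higher and 2 lower, where 14.6% of all genes were higher and 16.7% lower. Without CBFB_KO replicate 2 the count was 1 in all, and on library size alone 8 were higher and 1 lower. On library size alone, without TMM factors, the median of all genes shifted to 2.05 in this comparison (-0.12 with TMM), to 0.82 in CBFB_KO poly against mono, to 0.61 and 0.81 in WT poly against free and mono, to -1.57 in CBFB_KO against WT free and to 1.54 in the difference of the poly to free ratios. Changes that involve CBFB_KO free are therefore changes relative to the bulk of genes. Counts called on library size alone stand beside this shift of the median and are not read as results about the 10. The library size includes mitochondrial counts, which fill most of each CBFB_KO free library.

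**Figure D2:**
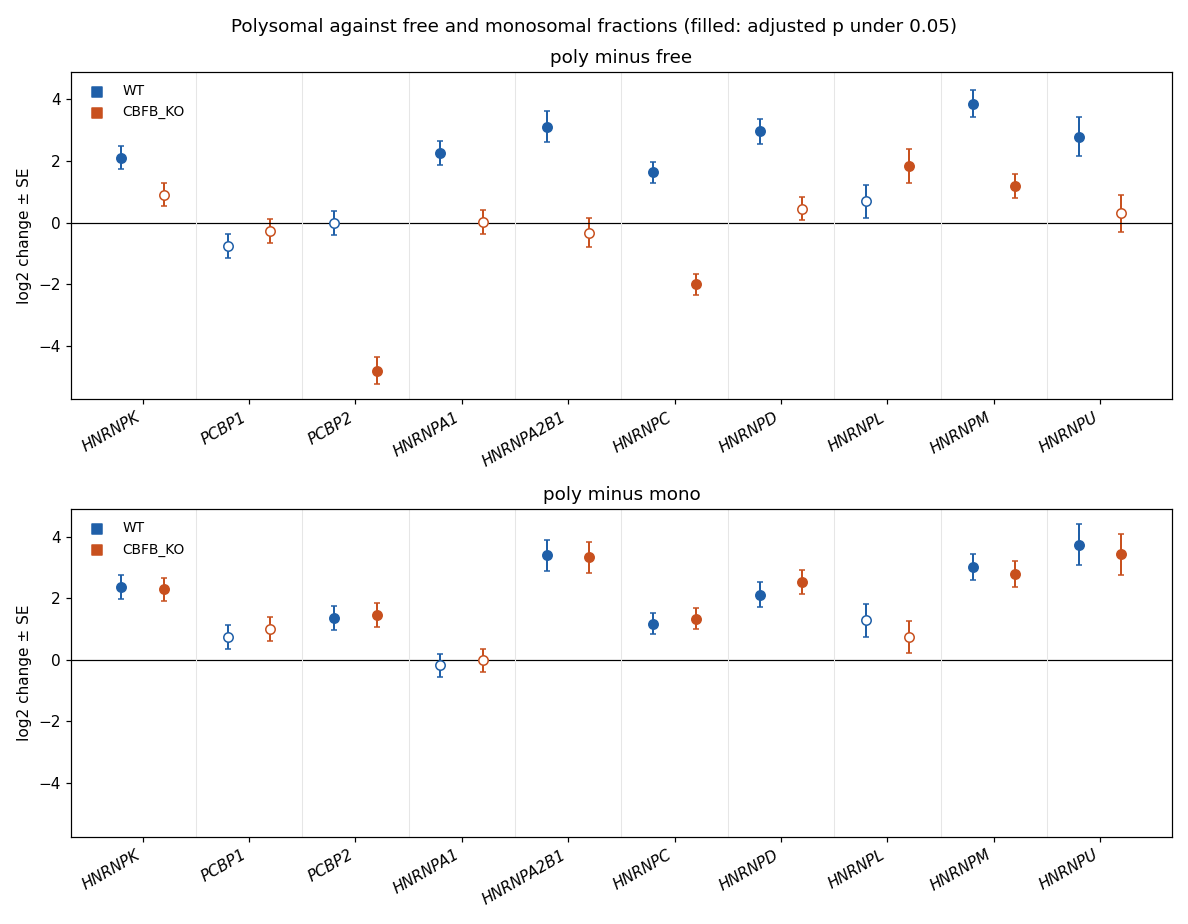
Log2 change from free to poly (upper panel) and from mono to poly (lower panel) for each of the 10 mRNAs. Points are edgeR estimates with TMM factors, bars are ± SE, filled points are called at an adjusted p under 0.05, and blue and orange stand for WT and CBFB_KO. Against mono the genotypes lie together, while against free the difference CBFB_KO minus WT is below 0 for 8 of 10 and reaches -4.80 for PCBP2; on library size alone the difference for HNRNPK turns to 0.59.

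HNRNPK encodes a KH-domain protein that binds C-rich RNA and DNA and acts in transcription, splicing and translation. In WT its mRNA was at 59.5 and 55.2 TMM CPM in free, 47.4 and 48.0 in mono and 220.1 and 273.8 in poly. Both poly libraries lay far above the 4 others. The poly level was 4.31-fold that in free (log2 change 2.11 ± 0.38 (SE), adjusted p = 0.00435) and 5.18-fold that in mono (2.37 ± 0.39, adjusted p = 0.00394). These adjusted p-values were 0.062 and 0.057 without WT replicate 1 and 0.067 and 0.080 without WT replicate 2, with changes of 1.95 to 2.52.

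In CBFB_KO, HNRNPK was at 88.8 and 141.9 in free, 39.1 and 49.1 in mono and 213.4 and 215.8 in poly. The poly libraries were again the highest, and free no longer lay near mono. Poly exceeded mono 4.87-fold (log2 change 2.28 ± 0.39, adjusted p = 0.00649), and the change from free to poly was 0.90 ± 0.37 (adjusted p = 0.0876), not past the threshold. Between genotypes the poly levels differed by -0.20 ± 0.37 and the mono levels by -0.11 ± 0.37 (adjusted p = 1 for both). In free, HNRNPK was called 2.01-fold higher in CBFB_KO (1.01 ± 0.37, adjusted p = 0.0481). The call was made in 5 of 14 settings. It was lost without WT replicate 1 (adjusted p = 0.17), without WT replicate 2 (0.20) and without CBFB_KO replicate 2 (change 0.64, 0.36), and on library size alone the change was -0.79. The poly to free ratio was 3.70 and 4.96 in the WT gradients and 2.40 and 1.52 in the CBFB_KO gradients. Here and below, ratios by gradient join libraries of the same replicate number, which may not be the same gradient. In edgeR, which does not pair them, the difference of the log2 ratios, -1.21 ± 0.52, was not past the threshold (adjusted p = 0.116).

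PCBP1 encodes a poly(C)-binding protein that also serves as an iron chaperone. Its 2 highest WT values were in free, at 369.9 and 335.7 TMM CPM, against 131.3 and 119.2 in mono and 234.9 and 182.8 in poly. In CBFB_KO it was at 311.9 and 165.8 in free, 92.3 and 106.0 in mono and 196.8 and 197.8 in poly. The poly libraries lay between mono and free in WT, and within the span of the free libraries in CBFB_KO. The change from free to poly was -0.76 ± 0.39 in WT (adjusted p = 0.18) and -0.28 ± 0.39 in CBFB_KO (adjusted p = 0.611). In the main test over all 12 libraries, edgeR with TMM factors called PCBP1 in none of the 9 comparisons. DESeq2 called it lower in WT poly than in free (-0.88, adjusted p = 0.0308) and higher in CBFB_KO poly than in mono (0.96, adjusted p = 0.0179), and edgeR on the compared libraries alone also gave the second call (adjusted p = 0.00446). On library size alone it was called in CBFB_KO against WT free (-2.10), CBFB_KO poly against free (1.81) and CBFB_KO poly against mono (1.94). Over all settings, CBFB_KO poly against mono was called in 4 of 15.

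PCBP2 encodes the poly(C)-binding protein known for its role at viral and cellular internal ribosome entry sites. In WT it was at 275.4 and 358.7 in free, 138.4 and 108.0 in mono and 352.0 and 278.2 in poly. Free and poly overlapped (log2 change -0.01 ± 0.38, adjusted p = 0.993), and mono was the lowest (poly over mono 2.56-fold, adjusted p = 0.0306; 0.20 without WT replicate 1, 0.18 without WT replicate 2, and 0.071 with the CBFB_KO poly pair as 1 sample). In CBFB_KO the free libraries held 4970 and 9117, against 89.6 and 94.5 in mono and 250.5 and 253.4 in poly. PCBP2 was thus 22.2-fold higher in CBFB_KO free than in WT free (log2 change 4.47 ± 0.44, adjusted p = 8.94e-05). Poly was 28.0-fold lower than free in CBFB_KO (-4.81 ± 0.45, adjusted p = 8.4e-05). Both calls held in each setting tried, but on library size alone the changes were smaller, 2.62 and -2.42 on the log2 scale. The libraries behind them held 117030 and 90146 expected counts of PCBP2 in CBFB_KO free. Same-name pseudogenes took at most 0.57% of the PCBP2 counts. Whether the mitochondrial share of these libraries plays a part in the PCBP2 values was not tested. With mitochondrial genes left out of the fit, CBFB_KO against WT free was still called, at 4.46. That step changes neither the libraries nor their remaining depth, so it cannot decide the question.

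HNRNPA1 and HNRNPA2B1 encode the A/B-type proteins, which bind UAG-containing motifs and regulate exon skipping. HNRNPA1 was at 85.8 and 90.6 TMM CPM in WT free, 442.8 and 509.9 in mono and 368.2 and 473.9 in poly. Its mono and poly libraries overlapped (log2 change -0.18 ± 0.38, adjusted p = 0.771), and both lay above free (poly 4.77-fold, adjusted p = 0.00372; 0.063 without WT replicate 1 and 0.055 without WT replicate 2). In CBFB_KO the free libraries held 347.8 and 550.0, which spanned mono (371.7 and 547.0) and poly (455.3 and 455.9). HNRNPA1 was 5.09-fold higher in CBFB_KO free than in WT free (2.35 ± 0.40, adjusted p = 0.0015), and on library size alone this change was 0.54 with an adjusted p of 0.29. It has 73 same-name pseudogene rows, which took 0.829 to 4.57% of the summed counts, so its values carry some uncertainty from shared reads; adding them changed no call.

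HNRNPA2B1 was low in WT free (15.6 and 12.6) and mono (7.28 and 16.1), which overlapped, and high in poly (88.5 and 155.7). Poly exceeded free 8.65-fold (3.11 ± 0.51, adjusted p = 0.0027) and mono 10.5-fold (3.39 ± 0.51, adjusted p = 0.00354; 0.057 without WT replicate 2). In CBFB_KO it was at 150.3 and 179.9 in free, 10.2 and 16.1 in mono and 129.0 and 133.6 in poly. The change from free to poly in CBFB_KO, -0.33 ± 0.47, was not called (adjusted p = 0.614), and on library size alone it was 1.94 with an adjusted p of 0.0148. CBFB_KO free exceeded WT free 11.7-fold (3.55 ± 0.52, adjusted p = 0.000634), a call made in each setting tried, with a change of 1.82 on library size alone. In CBFB_KO poly exceeded mono 10.0-fold (3.32 ± 0.51, adjusted p = 0.00608).

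HNRNPC encodes the C proteins, which bind U-rich tracts and package pre-mRNA. It was at 125.2 and 115.8 in WT free, 159.8 and 169.0 in mono and 386.4 and 357.3 in poly, so that the fractions did not overlap. Poly exceeded free 3.09-fold (1.63 ± 0.34, adjusted p = 0.00806; 0.12 without WT replicate 1 and 0.076 without WT replicate 2). In CBFB_KO free it rose to 1333 and 1706, against 137.2 and 163.4 in mono and 375.4 and 380.5 in poly. This was 12.6-fold above WT free (3.66 ± 0.37, adjusted p = 9.07e-05) and was called in each setting tried, with a change of 1.91 on library size alone. Within CBFB_KO poly was 4.02-fold lower than free (-2.01 ± 0.35, adjusted p = 0.00176). Without CBFB_KO replicate 2 that change was -1.81 with an adjusted p of 0.085, and on library size alone it turned to 0.28.

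HNRNPD encodes AUF1, which binds AU-rich elements and affects mRNA decay. It was at 9.99 and 7.97 in WT free, 15.4 and 16.9 in mono and 68.3 and 71.6 in poly, where the poly libraries stood apart from the others (7.79-fold over free, 2.96 ± 0.41, adjusted p = 0.00172). In CBFB_KO it was at 9.08 and 14.5 in mono and 67.9 and 67.1 in poly, while free rose to 58.4 and 40.5 (5.51-fold over WT free, 2.46 ± 0.40, adjusted p = 0.00114; 0.87 with an adjusted p of 0.21 on library size alone). In poly the genotypes differed by -0.05 ± 0.38.

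HNRNPM encodes a splicing regulator that binds GU-rich RNA. It was at 5.78 and 6.17 in WT free, 11.0 and 10.3 in mono and 57.1 and 115.5 in poly. Poly was 14.4-fold above free (3.85 ± 0.44, adjusted p = 0.00111). In CBFB_KO it was at 31.3 and 29.7 in free, 9.18 and 10.9 in mono and 69.4 and 70.0 in poly, and the free level was 5.11-fold that of WT (2.35 ± 0.41, adjusted p = 0.00181), with 0.68 and an adjusted p of 0.33 on library size alone. Poly over free in CBFB_KO was called at 1.19 ± 0.40 (adjusted p = 0.0403), and lost with the gradient as a block (0.0575), without the filter (0.067), with the poly pair as 1 sample (0.163), without CBFB_KO replicate 1 (0.212), without CBFB_KO replicate 2 (0.366) and without the CBFB_KO free library of replicate 2 (0.106).

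HNRNPU, also known as scaffold attachment factor A, showed the widest spread in WT. It was at 20.0 and 6.82 in free, 4.84 and 9.07 in mono and 47.5 and 138.1 in poly. Poly was 6.91-fold above free (2.79 ± 0.64, adjusted p = 0.0117), but 1.31 with an adjusted p of 0.14 without WT replicate 2. It was 13.3-fold above mono (3.74 ± 0.67, adjusted p = 0.00485; 0.057 without WT replicate 2). In CBFB_KO free it was at 52.4 and 76.0, or 4.78-fold the WT level (2.26 ± 0.63, adjusted p = 0.0166), with 1.98 and an adjusted p of 0.13 without CBFB_KO replicate 2 and 0.51 and 0.54 on library size alone. Its CBFB_KO mono libraries held 6.50 and 8.16 and its poly libraries 77.8 and 79.7, within the span of WT poly.

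HNRNPL encodes a protein that binds CA repeats, and it went the other way in free. It was at 154.6 and 160.9 in WT free and at 78.1 and 20.8 in CBFB_KO free, 3.18-fold lower (log2 change -1.67 ± 0.54, adjusted p = 0.03). The 2 CBFB_KO free libraries lay below both WT libraries but far from each other. In edgeR the change was -3.10 on library size alone (adjusted p = 0.0099) and -1.69, not called, on the compared libraries alone (adjusted p = 0.157). DESeq2 gave -1.73 (adjusted p = 0.000942). Without the CBFB_KO free library of replicate 2 the change was -1.0 with an adjusted p of 0.08, and the call was also lost without WT replicate 1 (0.11) and WT replicate 2 (0.083). In mono it was at 128.1 and 80.0 in WT and 114.3 and 95.8 in CBFB_KO, which overlapped. In poly HNRNPL was at 266.7 and 241.5 in WT and 176.9 and 175.0 in CBFB_KO, which did not overlap, and the change of -0.53 ± 0.53 was not past the threshold (adjusted p = 1). Its change from free to poly was 0.69 ± 0.53 in WT (adjusted p = 0.37) and 1.83 ± 0.54 in CBFB_KO (adjusted p = 0.0257; 1.20 and 0.28 without CBFB_KO replicate 2).

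Across the fractions, the genotypes were called different in free and in neither of the ribosome-bound fractions. In free, 8 of 10 were higher in CBFB_KO and 1 lower, where 24.2% of all genes were called higher and 18.1% lower; on library size alone 3 were higher (PCBP2, HNRNPC and HNRNPA2B1) and 2 lower, and HNRNPK reversed. The median log2 change was 2.35 over the 10 and 0.04 over all genes. In mono and in poly 0 of 10 were called by edgeR and by DESeq2, with changes from -0.45 (HNRNPD) to 0.17 (HNRNPA2B1) in mono and from -0.53 (HNRNPL) to 0.11 (HNRNPA1) in poly. None of the 10 had an unadjusted p under 0.05 there, a value that 712 of the 16275 genes reached in mono and 451 in poly. Of all genes 0.147% were called in mono and 0.190% in poly, so counts of 0 stand near the background.

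**Figure D3:**
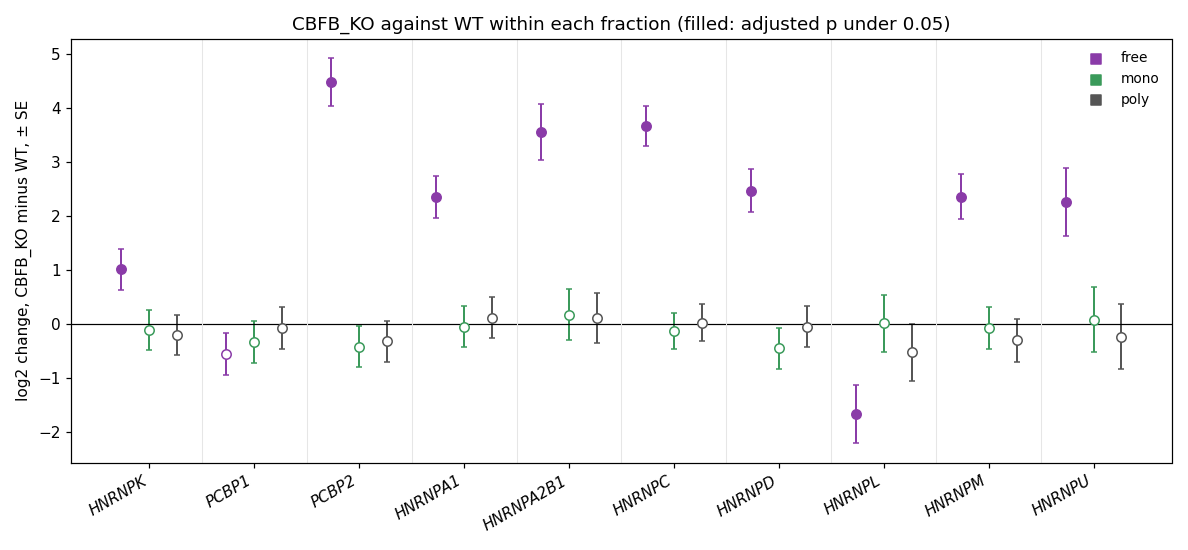
Log2 change from WT to CBFB_KO in the free, mono and poly fractions. Points are edgeR estimates with TMM factors for each of the 10 mRNAs, bars are ± SE, and filled points are called at an adjusted p under 0.05. In mono and poly the changes lie between -0.53 and 0.17, while in free they reach from -1.67 for HNRNPL to 4.47 for PCBP2; on library size alone that of HNRNPK in free turns to -0.79.

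The poly to free ratio was lower in CBFB_KO than in WT for 6 of 10 mRNAs and higher for 0, where 14.3% of all genes were called lower and 4.10% higher. PCBP2 had ratios of 1.28 and 0.776 in the WT gradients and 0.0504 and 0.0278 in the CBFB_KO gradients, and HNRNPC had 3.09 in both WT gradients and 0.282 and 0.223 in CBFB_KO. The other 4 were HNRNPA1, HNRNPA2B1, HNRNPD and HNRNPM. The count was 2 (PCBP2 and HNRNPC) with the CBFB_KO poly pair as 1 sample, without CBFB_KO replicate 2 and on library size alone, and 3 without WT replicate 2. The poly to mono ratio gave 0 of 10, with 0 of 16275 genes called (0.00%) and 164 at an unadjusted p under 0.05; DESeq2 also called 0 of 10. For HNRNPK it was 4.64 and 5.70 in WT and 5.45 and 4.40 in CBFB_KO, which overlapped. The ratio comparisons share their libraries with the comparisons above and are not independent of them.

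Which isoforms were counted was read from the mean transcript length that RSEM gives each gene, weighted by isoform abundance. HNRNPK averaged 2574 and 2698 bases in WT free, 2720 and 2797 in mono and 2227 and 2128 in poly. Both poly values were shorter than the other 4, and the change from free to poly, -0.28 ± 0.07 (log2), was not past the threshold of limma over 13685 genes (adjusted p = 0.121). In CBFB_KO it was 2251 and 2347 in free and 2272 and 2271 in poly. HNRNPM went from 1315 and 1683 in WT free to 2242 and 2275 in poly (0.60 ± 0.15, adjusted p = 0.0932). None of the 10 was called in WT poly against free (2.64% of all genes) or in CBFB_KO against WT poly (0.00731%). PCBP1 has 1 length in all libraries and could not be tested.

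HNRNPD was the 1 mRNA with a called length. It averaged 1369 and 1200 bases in WT free and 1526 and 1535 in CBFB_KO free, longer by 0.26 ± 0.06 on the log2 scale (adjusted p = 0.0492, where 5.10% of all genes were longer). The call was lost in 7 of 8 other settings (adjusted p = 0.0526 to 0.377; 0.0575 without WT replicate 2, 0.205 without CBFB_KO replicate 1 and 0.377 without CBFB_KO replicate 2, against 0.0207 without WT replicate 1). In 3 of these another of the 10 was called in its place: PCBP2 on effective length, HNRNPA2B1 without WT replicate 2 and HNRNPA1 without CBFB_KO replicate 1. PCBP2 averaged 1324 and 1301 bases in CBFB_KO free and 1336 to 1374 in the other 10 libraries.

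**Figure D4:**
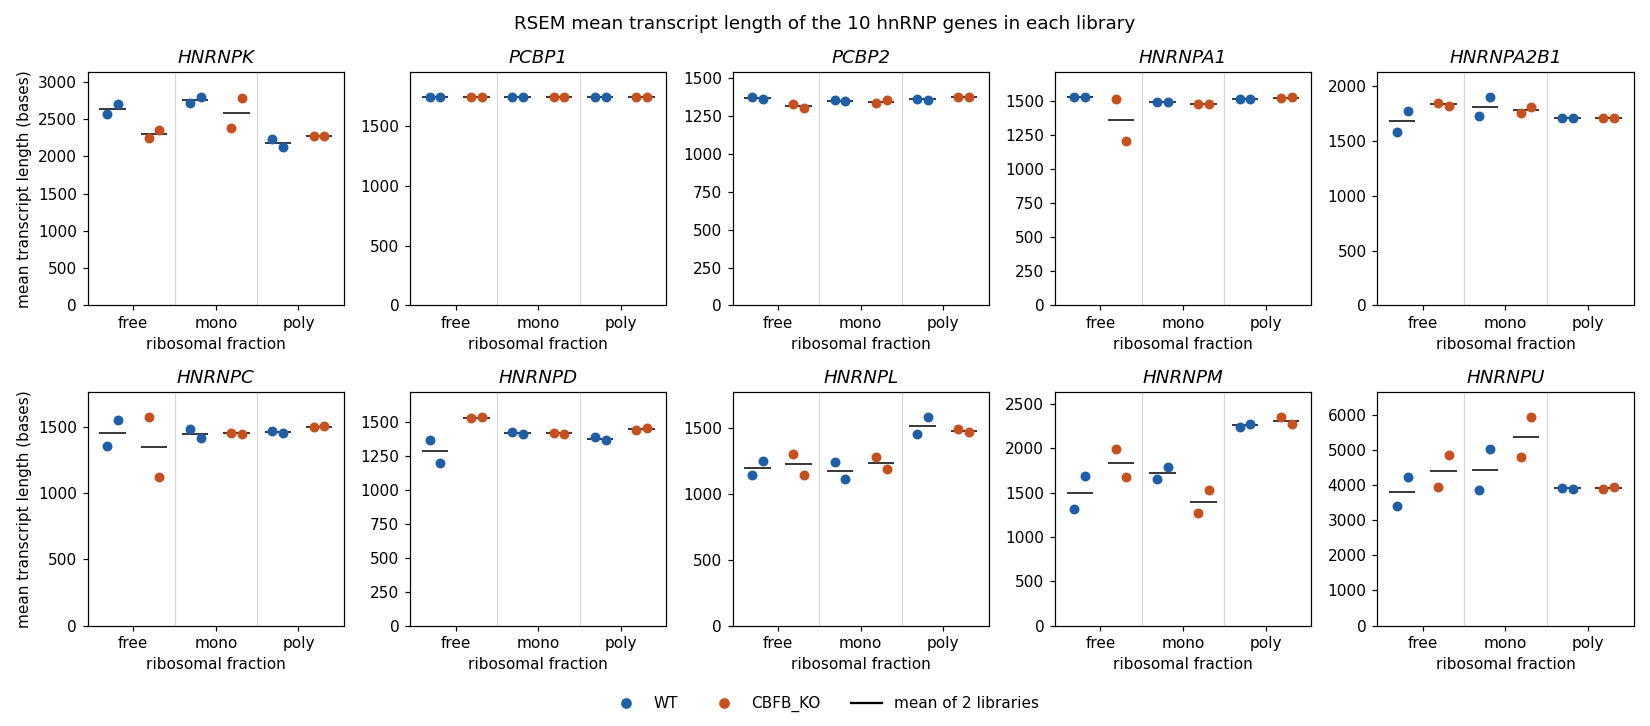
RSEM mean transcript length, in bases, of the 10 genes. Points are libraries (blue, WT; orange, CBFB_KO), black lines are means of 2 libraries, and each y axis starts at 0. HNRNPK poly lies at 2128 to 2272, HNRNPM poly at 2242 to 2353, and PCBP1 at 1748 throughout.

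A list of 19 other hnRNP genes was described beside the 10. In WT poly 9 were higher than in free and 1 lower (14.0 and 7.99% of all genes), and 9 were higher than in mono and 0 lower (11.0 and 9.68%), led by HNRNPH2 (3.43 ± 0.49), HNRNPUL2 (3.24 ± 0.39) and SYNCRIP (3.07 ± 0.49). HNRNPR and HNRNPUL2 had the largest positive changes against free (3.31 ± 0.46 and 2.99 ± 0.38), and PCBP4 was lower (-3.17 ± 0.89, adjusted p = 0.0274). In CBFB_KO free 11 of 19 were higher than in WT free and 1 lower (24.2 and 18.1% of all genes), against 3 higher and 4 lower on library size alone. HNRNPUL1, an RNA-binding protein related to HNRNPU, rose there from 54.2 and 78.3 to 1546 and 1319 TMM CPM (4.43 ± 0.45, adjusted p = 9.29e-05), followed by RBMX (3.44 ± 0.40) and SYNCRIP (3.23 ± 0.49), which encodes hnRNP Q. The poly to free ratio was lower in CBFB_KO for 8 of 19 and higher for 0 (14.3 and 4.10% of all genes; 2 and 0 of 19 on library size alone), again with HNRNPUL1 (-4.94 ± 0.59), RBMX (-3.83 ± 0.53) and SYNCRIP (-3.41 ± 0.66) at the front. In CBFB_KO poly 10 were higher and 0 lower than in mono (8.20 and 8.66% of all genes), with HNRNPH2 (3.11 ± 0.49), HNRNPUL2 (3.08 ± 0.38) and SYNCRIP (3.04 ± 0.49) in front. Against free 3 were higher and 5 lower (14.6 and 16.7% of all genes; 12 and 1 of 19 on library size alone), among them HNRNPUL1 (-4.16 ± 0.45) and RBMX (-2.42 ± 0.38), while PCBP3 at -3.35 ± 1.39 was not called (adjusted p = 0.0872). Between genotypes 0 of 19 were called in mono, in poly or in the poly to mono ratio (0.147, 0.190 and 0.00% of all genes). Among the largest differences were those of PCBP3 (-1.77 ± 1.25), PCBP4 (0.74 ± 0.82) and RBMX (-0.71 ± 0.37) in mono, of PCBP3 (-3.04 ± 1.33), PCBP4 (0.56 ± 0.82) and HNRNPUL1 (-0.51 ± 0.39) in poly, and of PCBP3 (-1.28 ± 1.74) and HNRNPH3 (0.55 ± 0.52) in the ratio, all with an adjusted p of 1. As with the 10, these calls carry the large mitochondrial share and the low remaining depth of CBFB_KO free, and the part of either was not tested.

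Over the 12 libraries, the genes whose log2 TMM CPM followed HNRNPK most closely were HNRNPUL2 (Pearson's r = 0.985), STAT5B (0.981), HSP90AB1 (0.980), GRSF1 (0.978) and CTNNB1 (0.976), out of 5977 genes with a mean of at least 10. Of the 10 mRNAs, HNRNPM (0.945), HNRNPU (0.931), HNRNPD (0.912) and HNRNPA2B1 (0.890) were the most like it, HNRNPC came next with 0.579, and PCBP2, HNRNPA1, PCBP1 and HNRNPL had 0.277 to 0.331. These values describe 12 libraries that fall into 6 conditions and share their depth and fraction, and they carry no test.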

How the data were processed

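RNA of 3 ribosomal fractions (free, mono, poly) was measured in 12 libraries, grouped by genotype and fraction from their labels. Per the labels, reads were trimmed with Trimmomatic, aligned with STAR to hg19 and quantified with RSEM (versions not given in the sources used here). The authors deposited RSEM expected counts, without normalization, and TPM, scaled to the same sum in each library, for 56632 genes of each library; the deposited mean transcript lengths were used and FPKM was not. Symbols matched 49995 gene IDs. The 10 mRNAs and all gene lists were chosen with earlier results of these data known.

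Rounded expected counts went into edgeR 4.0.16 under R 4.3.3, with filterByExpr, TMM, 1 mean per condition over all 12 libraries, quasi-likelihood test and Benjamini-Hochberg adjustment over 16275 genes. The 9 comparisons were poly against free and against mono in each genotype, CBFB_KO against WT in each fraction, and the difference between genotypes of both ratios. Lengths were fitted on the log2 scale with limma 3.58.1 for 3 comparisons. The fits were tested on simulated data. Alternatives were DESeq2 1.42.0, library size alone, no mitochondrial genes, no filter, blocks, the compared libraries alone, the CBFB_KO poly pair as 1 sample, omitted replicates and added pseudogene counts. Named genes were the 10 mRNAs, the 3 other hnRNPs with the largest changes per comparison (1 of these values is not reported here) and the 5 genes most correlated with HNRNPK. In each library 3 counts are 4.7e-06 to 7.3e-06% of the total; such floors cover counting error only. Sequences were aligned with Biopython 1.88 and figures drawn with matplotlib 3.10.9.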

Additional observations from a re-analysis of the deposited data

Results flagged for a closer look

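The change in the poly to free ratio between CBFB_KO and WT passed the test of the difference for 6 of the 10 mRNAs, where 14.3% of all genes were called lower and 4.10% higher (edgeR, log2 difference CBFB_KO minus WT): PCBP2 at -4.80 (adjusted p = 0.000521), HNRNPC at -3.63 (0.000862), HNRNPA2B1 at -3.44 (0.00643), HNRNPM at -2.66 (0.00932), HNRNPD at -2.51 (0.0101) and HNRNPA1 at -2.23 (0.0176). Of the other hnRNPs named by size, HNRNPUL1 (-4.94), RBMX (-3.83) and SYNCRIP (-3.41) passed it too. In each of the 6, both CBFB_KO gradients had a lower ratio than both WT gradients. These ratios come from the same libraries as the calls, and the 6 were picked by the test of the same difference. Their order therefore adds no separate support, and the share of all genes with this order is not given. The same order held for HNRNPK and HNRNPU, which were not called in the main test. HNRNPK was called in 0 of 15 settings. HNRNPU (-2.49, adjusted p = 0.0626 in the main test) was called in 3 of 15. Among these were DESeq2 (-2.56, adjusted p = 0.019) and edgeR without the filter (-2.48, adjusted p = 0.00788). The PCBP2 and HNRNPC differences were called in each setting tried, at -2.93 and -1.88 on library size alone. Mitochondrial genes took 71.56 and 87.22% of the CBFB_KO free libraries behind these ratios, and the part of that share in the differences was not tested. Leaving those genes out of the fit kept 6 calls, but it changes neither the libraries nor their remaining depth.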

How the results depend on the processing

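Counts of members called moved as follows, among other shifts. On library size alone, CBFB_KO poly against free gave 9, CBFB_KO against WT free 5 and the poly to free ratio 2. With the CBFB_KO poly pair as 1 sample, CBFB_KO poly against free gave 2, poly against mono 0 and the poly to free ratio 2. Fitted on the libraries compared alone, CBFB_KO against WT free gave 5. The count of changed lengths in CBFB_KO against WT free was 0 under the replicate block, without the filter and with the poly pair averaged. Without 1 replicate, WT poly against free ranged from 3 to 7, WT poly against mono from 0 to 7, CBFB_KO poly against free from 1 to 4, poly against mono from 0 to 8, CBFB_KO against WT free from 6 to 9, the poly to free ratio from 2 to 6 and lengths in free from 0 to 1. The mono, poly and poly to mono ratio comparisons between genotypes gave 0 in each setting run.

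Of the single values, 35 changed sign, 2 of them called with TMM (HNRNPC in CBFB_KO poly against free, 0.28, and HNRNPK in CBFB_KO against WT free, -0.79, both on library size alone). The others were as follows. PCBP2 in WT poly against free was 0.51 on library size, 0.03 without the filter, 0.00 under the replicate block, 0.01 with the pair as 1 sample and -0.34 to 0.42 without a replicate. HNRNPA1 was 0.71 in WT poly against mono on library size. In CBFB_KO poly against free, PCBP1 was 1.81 and HNRNPA2B1 1.94 on library size, PCBP1 was -0.65 to 0.28 without a replicate, and HNRNPA1 was -0.20 with DESeq2, -0.25 to 0.40 without a replicate and -0.01 with pseudogene counts. HNRNPA1 in CBFB_KO poly against mono was 0.96 on library size, 0.02 without the filter, 0.02 and 0.03 under the replicate and gradient blocks, 0.18 on the compared libraries, 0.05 with the pair as 1 sample and -0.26 to 0.31 without a replicate. Without a replicate, HNRNPK between genotypes reached 0.05 in mono and ranged from -0.36 to 0.00 in poly and from -0.24 to 0.15 in the poly to mono ratio, HNRNPA2B1 ranged from -0.29 to 0.80 in mono, and HNRNPA1 from -0.06 to 0.35 in poly. PCBP3, with 0 to 98 counts per library, ranged from -1.71 to 4.18 in the poly to mono ratio without a replicate. HNRNPK in the poly to free ratio was 0.59 on library size. Library size counts mitochondrial genes too, which took 71.56 and 87.22% of the CBFB_KO free libraries. Of the non-mitochondrial counts HNRNPK took 0.00751 and 0.00864% in WT free and 0.0154 and 0.0267% in CBFB_KO free. HNRNPC took 0.231 and 0.321% of them in CBFB_KO free and 0.0656 and 0.0666% in CBFB_KO poly. On these shares both mRNAs kept the direction found with TMM. The cause of the shifts was not tested.

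The replicate numbers were checked as pairs. Differences between replicates correlated across genes at 0.06, 0.51 and 0.08 between genotypes in free, mono and poly, and within a genotype at -0.19, 0.04 and 0.40 in WT (free with mono, free with poly, mono with poly) and 0.22, 0.04 and 0.03 in CBFB_KO. Not every pair exceeded 0.1, so the numbers were not taken as pairs in the main tests. Only the ratios given by gradient join libraries by these numbers. With the replicate block, CBFB_KO against WT free again gave 9 members and WT poly against free 7. With the gradient as a block, HNRNPM in CBFB_KO poly against free (adjusted p = 0.0575) and HNRNPC in WT poly against mono (0.0541) were no longer called. With 2 libraries per condition, changes of a few fold could often not be called.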

Other observations

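In the CBFB_KO free library of replicate 2, the mean transcript length of HNRNPA1 was 1202 bases, against 1478 to 1527 in the other 11 libraries, and its same-name pseudogenes took their highest share, 4.57%. In the same library HNRNPC averaged 1122 bases, against 1356 to 1573 elsewhere. Both are values of 1 library, chosen after they were seen.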
